A study of Homo sapiens with 18 samples.

Results

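The collagen genes are described here as they were transcribed in MDA-MB-231 cells, a long-established cell line from a triple-negative breast tumor. Members were all protein-coding genes whose GENCODE symbol has the form COL, number, A, number, which gave 44 collagen genes out of 62703 genes in the files. They were sorted by structure into 11 fibrillar, 6 basement membrane (type IV) and 5 type VI genes, 10 FACIT genes, 4 transmembrane, 2 multiplexin and 3 short-chain network genes, and 3 others.

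Collagens are secreted or membrane-bound proteins in which 3 alpha chains wind into a triple helix, and each chain is the product of its own gene. Fibrillar collagens such as types I and V pack into the fibers of connective tissue, type IV collagen forms the sheet-like network under epithelia and around vessels, and type VI collagen forms beaded microfilaments that link cells to the surrounding matrix. FACIT collagens decorate fibrils, and multiplexins sit in basement membrane zones. In tumors most collagen comes from fibroblasts, while carcinoma cells add chains of their own that shape adhesion and invasion.

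Polyadenylated RNA was sequenced in 10 distinct libraries, 2 in each of 5 groups. Cells exposed to lentivirus for 24 h and then selected with puromycin at 2 µg/ml for 72 h expressed a short hairpin RNA with no target (Control shRNA), one that targets EZH2 (shEZH2) or one that targets E2F1 (shE2F1). Other cells were treated for 72 h with the solvent DMSO or with GSK126 at 1 µM, which blocks the methyltransferase activity of EZH2. EZH2 is the enzyme of the Polycomb complex PRC2, a histone methyltransferase linked to gene silencing, while E2F1 drives genes needed for entry into S phase. The study used these groups to ask which functions of EZH2 depend on its methyltransferase activity and which run through E2F1. Each knockdown rests on 1 hairpin in 1 cell line, and nothing in the labels says that the 2 libraries of a group came from separate cultures, so that p-values measure the spread between these libraries, which may be technical.

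Totals ran from 13198932 to 20055550 expected counts per library. EZH2 stood at 90.8 and 102 TPM (a level scaled by gene length and by the total of the library) in Control shRNA and at 31.9 and 26.5 TPM in shEZH2. E2F1 stood at 81.6 and 74.7 TPM in Control shRNA, at 16.1 and 14.6 TPM in shE2F1 and at 40.1 and 20.0 TPM in shEZH2, so that the E2F1 transcript was lower in both knockdowns. The markers of the line, VIM, CD44 and KRT18, summed to 2710 to 2770 TPM in shEZH2 and to 4140 to 4630 TPM in the other groups, VIM being called lower in shEZH2 (log2 change -1.33, adjusted p = 3.52e-06). PGR was at 0 in every library, while EPCAM, set as low or absent, was present at 12.4 to 37.7 TPM. CDH1, also set as low or absent, was called higher in shEZH2 (log2 change 2.23, adjusted p = 0.00329). In shE2F1 CDH1 was called higher (3.915, adjusted p = 6.41e-05) and EPCAM lower (-1.24, adjusted p = 3.02e-05). The fibroblast markers DCN and MFAP4 were at 0 in every library, yet the 7 fibroblast markers summed to 8.34 to 8.38 TPM in Control shRNA, 12.7 to 16 TPM in shEZH2 and 10.7 to 13.3 TPM in shE2F1. LUM rose in both knockdowns, FBLN1 rose and PDGFRB fell in shEZH2, and the part of VIM and of these markers in the collagen results was not tested.

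Promoters are shown for 5 collagen genes on which the results below turn, among them chains of the same molecule whose promoters differ in base composition. The sequences come from the RefSeq promoter table (GRCh38.p14), which holds windows of 300 bases, from 250 before to 50 after a gene's start, for 32 of the 44 collagen genes. Each is written 5′ to 3′ on the strand of its gene. Capitals mark 3 motifs on either strand, which do not overlap one another. The first is the TATA box, spelled TATAAA. The second is the CCAAT box, named for its letters. The third is the GC box, spelled GGGCGG. COL4A1 and COL4A2 lie head-to-head on chromosome 13, and the window of COL4A2 (chr13:110307034-110307333, plus strand) also holds the start of COL4A1, at base 124, on the opposite strand.
COL4A2: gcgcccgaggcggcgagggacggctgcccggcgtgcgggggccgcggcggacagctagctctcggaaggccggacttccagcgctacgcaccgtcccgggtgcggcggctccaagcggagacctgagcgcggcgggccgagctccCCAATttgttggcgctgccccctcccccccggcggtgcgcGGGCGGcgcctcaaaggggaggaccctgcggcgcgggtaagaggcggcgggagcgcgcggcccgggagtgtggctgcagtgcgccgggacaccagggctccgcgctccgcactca

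The type VI chains have separate promoters. That of COL6A2 (chr21:46097862-46098161, plus strand) was 79.3% G or C, with 36 CpG dinucleotides. That of COL6A3 (chr2:237414115-237414414, minus strand) was 56.3% G or C, with 4 CpG dinucleotides and none of the motifs searched.
COL6A2: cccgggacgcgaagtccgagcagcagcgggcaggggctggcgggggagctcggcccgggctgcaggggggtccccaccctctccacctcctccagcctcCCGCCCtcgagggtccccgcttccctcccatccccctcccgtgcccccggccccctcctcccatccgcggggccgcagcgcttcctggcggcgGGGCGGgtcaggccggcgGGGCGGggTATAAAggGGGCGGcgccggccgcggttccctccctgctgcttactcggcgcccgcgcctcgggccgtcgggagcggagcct
COL6A3: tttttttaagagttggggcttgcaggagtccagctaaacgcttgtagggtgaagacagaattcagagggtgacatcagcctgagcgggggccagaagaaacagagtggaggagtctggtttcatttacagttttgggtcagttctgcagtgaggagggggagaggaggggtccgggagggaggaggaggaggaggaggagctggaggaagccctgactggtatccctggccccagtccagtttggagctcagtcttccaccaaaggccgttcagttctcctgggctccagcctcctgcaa

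The windows of COL17A1 (chr10:104085831-104086130, minus strand) and COL12A1 (chr6:75206004-75206303, minus strand) are shown because COL17A1 was called in shEZH2 but not in shE2F1, while COL12A1 was called in both.
COL17A1: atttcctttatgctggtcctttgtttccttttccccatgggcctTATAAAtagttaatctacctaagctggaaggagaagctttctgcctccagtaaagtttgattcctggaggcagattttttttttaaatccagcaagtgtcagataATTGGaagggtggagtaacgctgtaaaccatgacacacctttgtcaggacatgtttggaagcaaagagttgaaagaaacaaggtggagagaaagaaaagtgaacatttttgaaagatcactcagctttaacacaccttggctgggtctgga
COL12A1: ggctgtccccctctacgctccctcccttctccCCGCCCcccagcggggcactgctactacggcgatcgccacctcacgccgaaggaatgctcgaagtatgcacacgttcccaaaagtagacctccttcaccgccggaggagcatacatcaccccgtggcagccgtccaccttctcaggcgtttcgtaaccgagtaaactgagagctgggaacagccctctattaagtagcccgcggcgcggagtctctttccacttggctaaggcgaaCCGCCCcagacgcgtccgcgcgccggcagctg

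COL17A1 had 1 CpG dinucleotide in its window and COL12A1 had 29. Over the 44 windows of these 32 genes, a TATA box was found in 18.2%, a CCAAT box in 31.8% and a GC box in 54.5%, against 11.5%, 34.6% and 45% of all 35116 windows in the table and 9.45%, 34.9% and 56.8% of the 21612 windows of protein-coding genes. The collagen share with a GC box was thus above that of all windows and below that of protein-coding genes. The E2F site letters TTTCGCGC or TTTGGCGC, on either strand, were found in none of the 44 windows, in 1.15% of all windows and in 1.53% of those of protein-coding genes. These matches describe letters only.

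Of the 44 collagen genes, 9 had no count in any library (COL6A5, COL6A6, COL9A1, COL10A1, COL14A1, COL19A1, COL22A1, COL23A1 and COL25A1), so that each could still lie below 0.150 to 0.227 CPM (3 counts in a library, for counting error alone). Another 9 had at most 9 counts in a library and were not tested: COL2A1, COL3A1, COL4A3, COL5A3, COL9A3, COL11A1, COL21A1, COL26A1 and COL28A1. Of the rest, 26 passed the filter on low counts when the knockdown libraries were fitted and 24 when the drug libraries were, COL20A1 and COL24A1 being the difference. The main chain of cartilage, COL2A1, and COL3A1, an abundant fibroblast chain, were thus at or near 0. COL11A1, a minor fibrillar chain, had 4 and 6 counts in the shEZH2 libraries and 0 in the Control shRNA and shE2F1 libraries.

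Levels were uneven, and 12 genes had a mean of at least 10 TPM. COL8A1, a short-chain collagen of vessel walls and the corneal endothelium, was the most abundant in Control shRNA at 184 and 176 TPM. COL4A2, COL13A1, COL5A1 and COL18A1 completed the 5 highest means, and these 5 genes made up 68.4% and 68.3% of all collagen TPM in Control shRNA. In shEZH2 they made up 49.5% and 47.1%, with COL4A2 as the most abundant gene in both libraries.

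**Figure D1:**
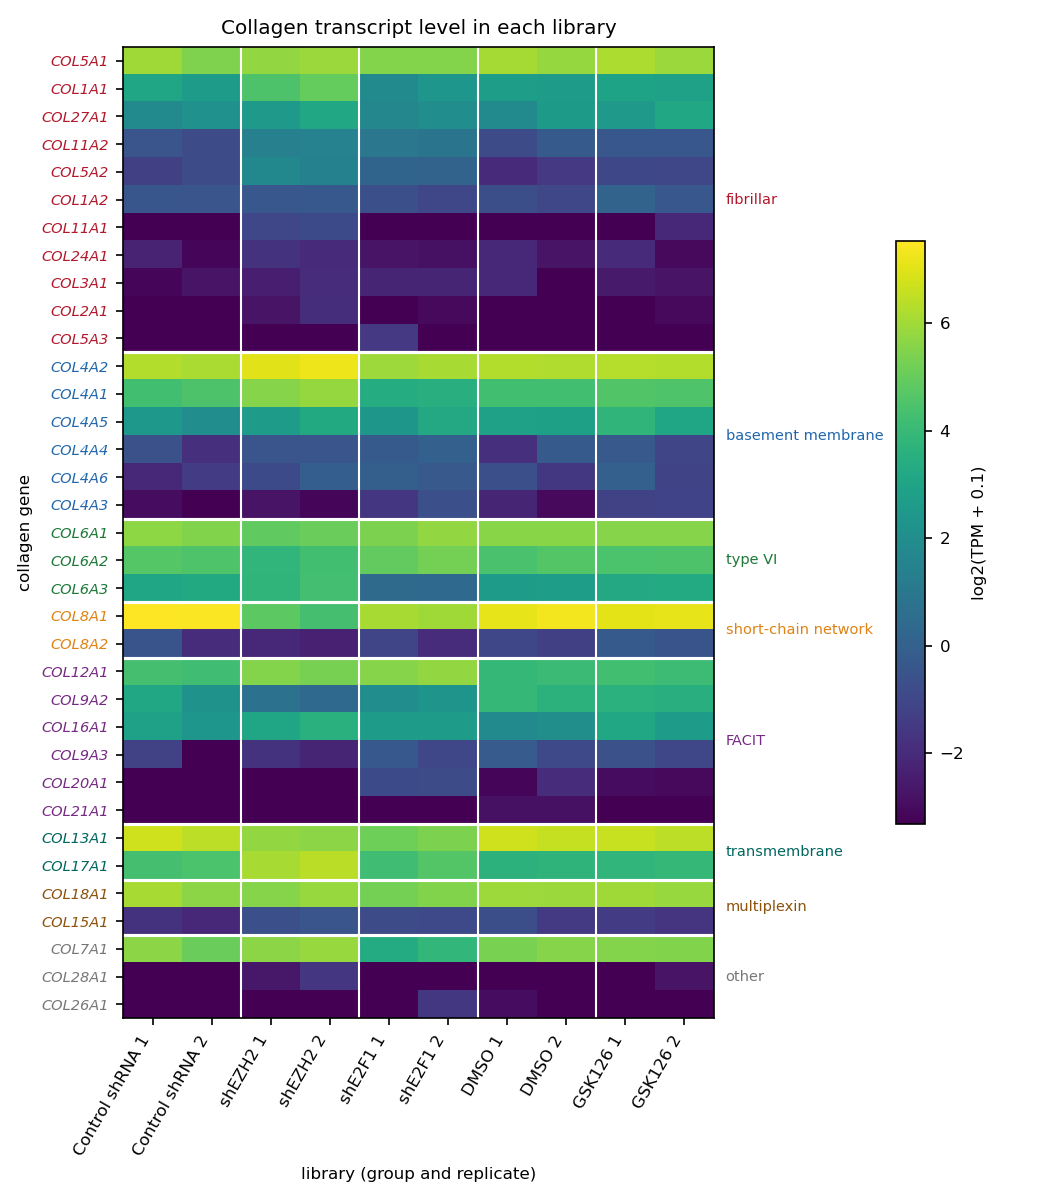
Transcript level of the 35 collagen genes with a count in at least 1 library, as log2(TPM + 0.1) on a color scale, with genes in rows by class and the 10 libraries in columns. COL8A1 is brightest in Control shRNA and drops to 27.8 and 19.7 TPM in shEZH2, while COL6A3 is dark in the shE2F1 libraries, at 1.23 and 1.2 TPM.

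Summed over all members, collagen TPM was 727 and 624.5 in Control shRNA, 636 and 716 in shEZH2, 435 and 499 in shE2F1, 653 and 661 in DMSO and 681 and 642 in GSK126. The shEZH2 libraries lay within the range of Control shRNA and both shE2F1 libraries lay below it. The make-up differed more than the sum. Basement membrane genes held 13.9% and 15.7% of collagen TPM in Control shRNA, 29.2% and 30.5% in shEZH2 and 18.0% and 18.4% in shE2F1. The short-chain network genes, almost all COL8A1, held 25.3% and 28.3% in Control shRNA, 4.40% and 2.76% in shEZH2 and 15.8% and 12.7% in shE2F1.

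The 3 classes compared moved apart in shEZH2 in summed TPM, which was not corrected for GC content. With a correction for GC content and length, log2 changes of the main type VI chains were smaller. That of COL6A1 was -0.29 rather than -0.70 and that of COL6A2 -0.22 rather than -0.72. Basement membrane genes summed to 101 and 98.3 TPM in Control shRNA and to 186 and 218 TPM in shEZH2, a ratio of means of 2.02 ± 0.237 (SD from the spread of the 2 libraries in each group). Fibrillar genes summed to 76.5 and 54.5 TPM in Control shRNA and to 89.5 and 107 TPM in shEZH2, a ratio of 1.5 ± 0.401. Type VI genes summed to 84.1 and 77.0 TPM in Control shRNA and to 57.1 and 70.6 TPM in shEZH2, a ratio of 0.793 ± 0.129. In TPM the groups did not overlap in any of these classes, with basement membrane and fibrillar sums higher and type VI sums lower in shEZH2. How often 2 libraries of a group lie clear of 2 others over all genes was not counted. Lack of overlap, here and below, thus only describes the values printed. In CPM, which is not scaled by length, the fibrillar sums did overlap, at 364 and 275 in Control shRNA and 340 and 411 in shEZH2 (ratio 1.17), while the ratios for basement membrane and type VI genes were 1.74 and 0.767 without overlap. In shE2F1 the ratios to Control shRNA were 0.854 ± 0.0982, 0.868 ± 0.208 and 1.04 ± 0.198. Basement membrane sums of 78.4 and 92.0 TPM lay below Control shRNA, and in TPM the fibrillar and type VI ranges overlapped it. In CPM the fibrillar sums, at 223 and 239 in shE2F1, lay below the 364 and 275 of Control shRNA. The type VI sums in CPM, at 155.5 and 189 in shE2F1, lay below the 197 and 201 of Control shRNA. Sums in TPM follow the most abundant chain: without COL5A1, fibrillar genes gave a ratio of 3.24 in shEZH2, without COL4A2 basement membrane genes gave 2.35, and without COL6A1 type VI genes gave 0.989.

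**Figure D2:**
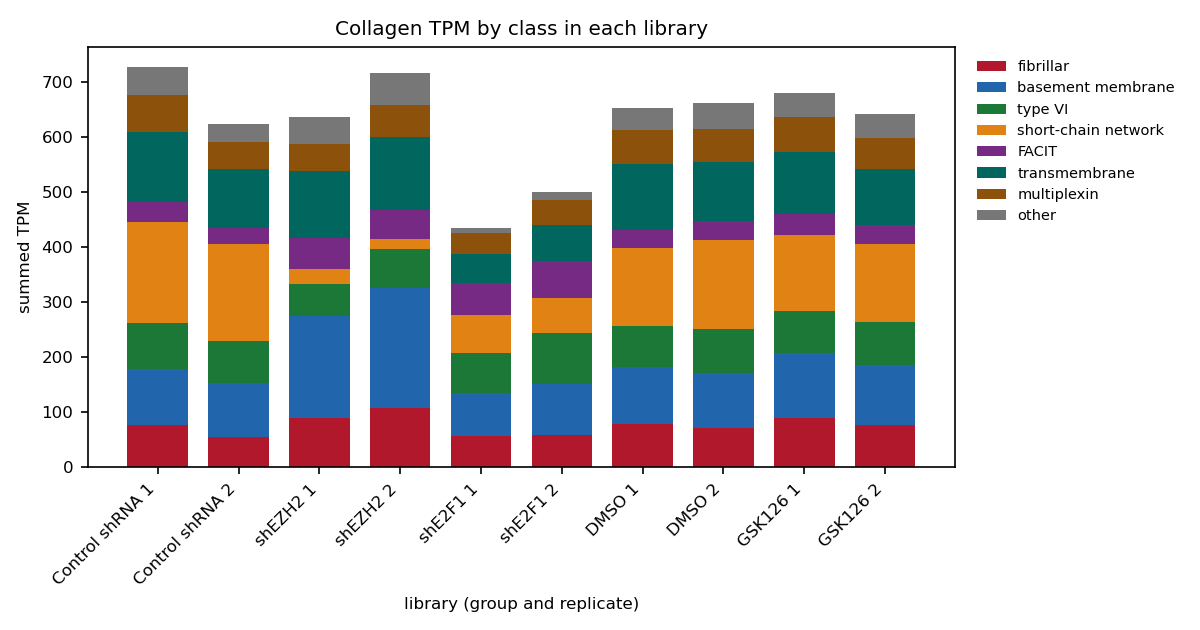
Summed TPM of the collagen classes in each of the 10 libraries, as stacked bars that start at 0, with group and replicate on the horizontal axis. The bars for shEZH2 reach 636 and 716 TPM, close to the 727 and 624.5 TPM of Control shRNA, but hold a smaller short-chain network part and a larger basement membrane part.

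Counts were tested with edgeR, and a gene was called higher or lower at an adjusted p under 0.01 (Benjamini-Hochberg over all genes tested) and a change of more than 2-fold, that is, a log2 change beyond 1. In shEZH2 against Control shRNA, 9 of the 26 tested collagen genes were called higher and 3 lower. Of all 15373 genes tested, 7.52% were called higher and 10.7% lower, 18.2% together. Whatever their fold, 20 of the 26 had an adjusted p under 0.05, as did 55.6% of all genes. The median log2 change of the 26 genes was 0.65, against -0.02 over all genes tested, with a range from -3.57 (COL8A1) to 2.35 (COL5A2). By class, 3 of 7 tested fibrillar genes and 3 of 5 basement membrane genes were called higher and none lower, while none of 3 type VI genes was called either way.

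Among fibrillar genes, COL1A1, COL5A2 and COL11A2 rose in shEZH2, while COL5A1, the most abundant of the class, did not. COL1A1, which encodes the major chain of type I collagen, stood at 8.39 and 6 TPM in Control shRNA and at 22.6 and 31.4 TPM in shEZH2. Its log2 change was 1.49 ± 0.18 (SE), with an adjusted p of 4.76e-05. COL1A2, which encodes the other chain of the type I heterotrimer, stood at 0.64 and 0.63 TPM in Control shRNA and at 0.66 and 0.70 TPM in shEZH2. The COL1A1 to COL1A2 ratio of TPM was 13.1 and 9.52 in Control shRNA and 34.3 and 44.9 in shEZH2, without overlap. COL1A2 was not called in counts either (log2 change -0.80, adjusted p = 0.0923), on 18 to 41 counts a library.

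COL5A2 is a partner of COL5A1 in type V collagen, which sets the diameter of type I fibrils. COL5A2 stood at 0.31 and 0.45 TPM in Control shRNA and at 3.26 and 2.63 TPM in shEZH2, and its log2 change was 2.35 ± 0.26 (adjusted p = 3.04e-05). COL5A1 stood at 62.9 and 42.5 TPM in Control shRNA and at 54.0 and 59.2 TPM in shEZH2, with a log2 change of -0.01 ± 0.14. The minor type V chain thus rose while the major chain lay within the range of the controls, and the ratio of COL5A1 to COL5A2 was 203 and 94.5 in Control shRNA against 16.6 and 22.5 in shEZH2. COL11A2, a chain of type XI collagen of cartilage, was at 0.62 and 0.45 TPM in Control shRNA and at 2.53 and 2.68 TPM in shEZH2 (log2 change 2.10 ± 0.28). COL5A2 and COL11A2 remained far below COL5A1, while COL1A1 reached 31.4 TPM where COL5A1 stood at 59.2 TPM. COL27A1, a fibrillar collagen of developing cartilage, was at 3.52 and 4.39 TPM in Control shRNA and 5.67 and 9.08 TPM in shEZH2 and was not called (log2 change 0.61, adjusted p = 0.0129).

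Each of the 5 tested basement membrane genes had a positive change in shEZH2, between 0.70 and 1.79 on the log2 scale. COL4A1 and COL4A2 encode the chains of the common type IV heterotrimer. COL4A1 stood at 18.6 and 22.4 TPM in Control shRNA and at 46.7 and 55.9 TPM in shEZH2 (log2 change 1.008 ± 0.13, adjusted p = 8.64e-05). COL4A2 stood at 76.8 and 71.5 TPM in Control shRNA and at 131 and 152 TPM in shEZH2. Its log2 change of 0.70 ± 0.11 had an adjusted p of 3.63e-04 but was below 2-fold. With a correction for GC content and length these changes were 1.02 and 0.92. COL4A4 and COL4A6, chains of the type IV networks of kidney and smooth muscle, were called higher at log2 changes of 1.64 ± 0.37 and 1.79 ± 0.42, on 9 to 68 counts a library. COL4A4 was at 0.54 and 0.18 TPM in Control shRNA and at 0.63 and 0.62 TPM in shEZH2, and with an offset for effective length its log2 change was 0.86 (adjusted p = 0.169). COL4A6 was at 0.13 and 0.28 TPM in Control shRNA and at 0.44 and 0.84 TPM in shEZH2.

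The type VI chains did not move as a set in shEZH2. COL6A1, COL6A2 and COL6A3 encode the chains of the common type VI heterotrimer. COL6A1 stood at 50.7 and 44.1 TPM in Control shRNA and at 29.4 and 32.8 TPM in shEZH2, and COL6A2 at 24.9 and 23.2 TPM and at 14.1 and 18.7 TPM. Their log2 changes, -0.70 ± 0.11 and -0.72 ± 0.14, had adjusted p-values of 4.48e-04 and 0.00155 but were below 2-fold. With a correction for GC content and length they were -0.29 (adjusted p = 0.0551) and -0.22 (adjusted p = 0.254), and shEZH2 changes over all genes were lower at high GC, with a median of -0.51 in the tenth of genes richest in GC and 0.22 in the tenth poorest in it. COL6A3 stood at 8.44 and 9.65 TPM in Control shRNA and at 13.5 and 19.2 TPM in shEZH2, with a log2 change of 0.71 ± 0.24 (adjusted p = 0.0287), and leaving out shEZH2 replicate 2 made it 0.20, while leaving out replicate 1 made it 1.08 and a call. The ratio of COL6A3 to COL6A1 in TPM was 0.166 and 0.219 in Control shRNA and 0.460 and 0.585 in shEZH2.

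**Figure D3:**
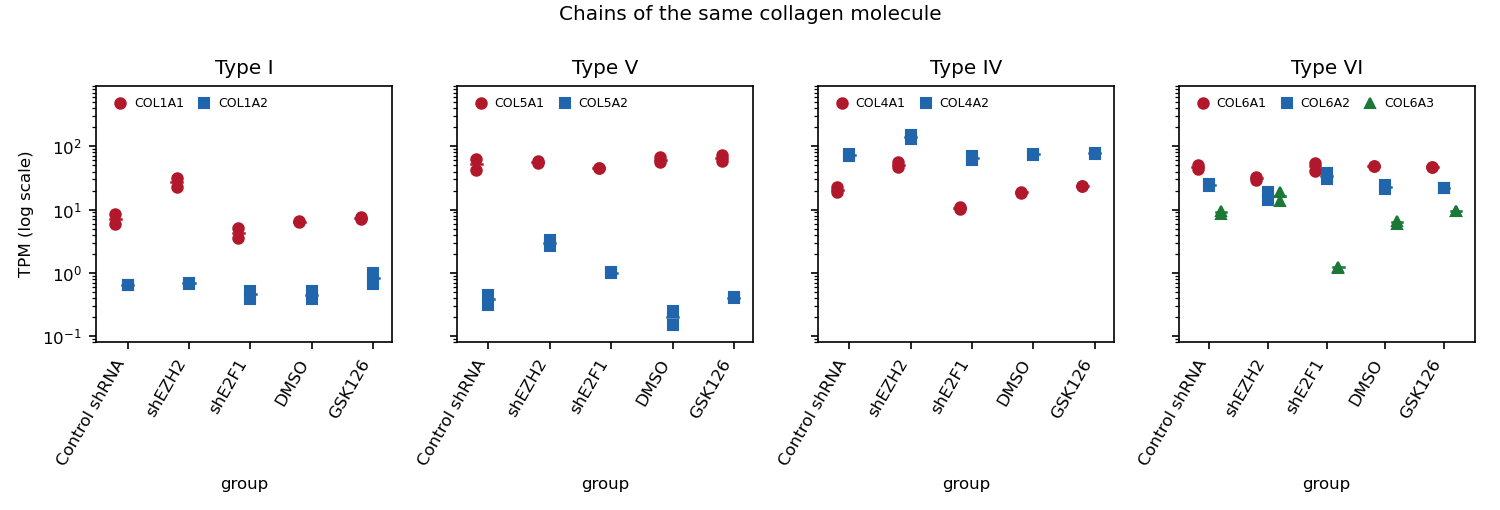
TPM on a log scale of the chains of collagen types I, V, IV and VI in the 5 groups, with each point a library and short lines at the means of 2 libraries. COL1A1 and COL5A2 rise in shEZH2 while COL1A2 and COL5A1 stay near their control levels, and COL6A3 falls to 1.23 and 1.2 TPM in shE2F1 while COL6A1 and COL6A2 do not.

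Outside these classes, COL8A1 fell the most, from 184 and 176 TPM in Control shRNA to 27.8 and 19.7 TPM in shEZH2. Its log2 change was -3.57 ± 0.15, with an adjusted p of 2.58e-07. COL8A2, its partner in type VIII collagen, stood at 0.60 and 0.16 TPM in Control shRNA and at 0.13 and 0.10 TPM in shEZH2 and was not called (log2 change -2.56 ± 0.77, adjusted p = 0.0158), on 2 to 34 counts a library. It was called without Control shRNA replicate 2 (-3.15, adjusted p = 0.00451), while without Control shRNA replicate 1 its log2 change was -1.43 (adjusted p = 0.229). COL9A2, a FACIT chain of cartilage fibrils, fell from 8.96 and 4.57 TPM to 1.60 and 1.22 TPM (log2 change -2.13 ± 0.36). COL13A1, a transmembrane collagen of cell-matrix junctions, fell from 106 and 86.6 TPM to 54.3 and 49.2 TPM (log2 change -1.15 ± 0.11).

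COL17A1, a transmembrane collagen of the hemidesmosome that anchors epithelial cells to the basement membrane, moved the other way. It rose from 20.1 and 21.5 TPM in Control shRNA to 69.1 and 84.0 TPM in shEZH2, and its log2 change was 1.60 ± 0.12 (adjusted p = 3.45e-06). COL12A1, a FACIT collagen on the surface of type I fibrils, rose from 19.8 and 18.2 TPM to 45.5 and 38.9 TPM. Its log2 change of 1.03 ± 0.11 was 0.64 with the correction for GC content and length, below 2-fold. COL15A1, a multiplexin, was at 0.20 and 0.13 TPM in Control shRNA and at 0.53 and 0.62 TPM in shEZH2 (log2 change 1.62 ± 0.41, adjusted p = 0.00616). The other multiplexin, COL18A1, whose C-terminal fragment is endostatin, was at 67.8 and 49.6 TPM in Control shRNA and at 47.4 and 57.4 TPM in shEZH2, and the groups overlapped. COL18A1 shares 1563 exon bases with SLC19A1 on the opposite strand, and whether counting used the strand was not stated. The shEZH2 groups of COL8A1, COL17A1, COL1A1, COL5A2 and COL11A2 were each clear of Control shRNA in both libraries, and each of these calls held when any library was left out.

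Calls near the threshold or on few counts did not all hold. COL4A1 was not called without Control shRNA replicate 1 (0.90) or shEZH2 replicate 2 (0.85), COL4A4 without Control shRNA replicate 1 (1.31) or shEZH2 replicate 2 (1.33), and COL12A1 without shEZH2 replicate 1 (0.92). COL4A6 lost its call without either Control shRNA library (1.85 and 1.75), without shEZH2 replicate 2 (1.42) or shE2F1 replicate 1 (1.79), and COL15A1 without any of the 6 knockdown libraries (1.40 to 1.91), with adjusted p-values up to 0.0541 and 0.0468. DESeq2 did not call COL4A6 (adjusted p = 0.0142) or COL15A1 (adjusted p = 0.0282) either, and COL4A1 lay at the 2-fold limit with no filter on low counts.

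In shE2F1 against Control shRNA, 4 of the 26 tested collagen genes were called higher and 5 lower, where 5.6% and 5.96% of all genes tested were called, 11.6% together. Whatever their fold, 18 of the 26 had an adjusted p under 0.05, as did 44.7% of all genes. The median log2 change of the 26 genes was -0.29, the same with COL20A1 at its lower bound, against 0.00 over all genes. Of 7 fibrillar genes 2 were called higher, of 5 basement membrane genes 1 was called lower, and of 3 type VI genes 1 was called lower.

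COL6A3 showed the largest fall. It went from 8.44 and 9.65 TPM in Control shRNA to 1.23 and 1.2 TPM in shE2F1, from 471 and 547 counts to 34 and 42. Its log2 change was -3.90 ± 0.33 (adjusted p = 8.23e-06), and -3.11 with an offset for effective length (adjusted p = 1.89e-05). Its partners were not called. COL6A1 stood at 41.5 and 55.0 TPM in shE2F1, with a log2 change of -0.16 ± 0.11. COL6A2 stood at 30.1 and 38.0 TPM in shE2F1, above its 24.9 and 23.2 TPM in Control shRNA, with a log2 change of 0.28 ± 0.14. The ratio of COL6A3 to COL6A1 in TPM fell to 0.0297 and 0.0218, from 0.166 and 0.219 in Control shRNA. Of the 3 tested type VI chains, COL6A3 has the longest transcript, and it lies on chromosome 2, away from COL6A1 and COL6A2, which neighbor each other on chromosome 21, 93061 bases apart.

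COL4A1 fell in shE2F1, from 18.6 and 22.4 TPM to 10.4 and 11.2 TPM (log2 change -1.28 ± 0.14, adjusted p = 3.46e-05). COL4A2 stood at 60.9 and 69.4 TPM, with a log2 change of -0.36 ± 0.11 that was not called (adjusted p = 0.0228). The ratio of COL4A1 to COL4A2 in TPM was 0.243 and 0.313 in Control shRNA, 0.355 and 0.369 in shEZH2 and 0.171 and 0.161 in shE2F1, and the 3 groups did not overlap. These genes share the promoter region printed above, with RefSeq starts 127 bases apart. The other tested type IV chains had positive changes that were not called. COL4A4 stood at 0.75 and 0.91 TPM in shE2F1 (log2 change 1.25, adjusted p = 0.0183) and COL4A5 at 5.29 and 9.33 TPM (log2 change 0.62, adjusted p = 0.0207). COL4A6 stood at 0.88 and 0.72 TPM (log2 change 1.53, adjusted p = 0.013) and was called higher once GC content and length were corrected for (1.65, adjusted p = 0.00842). The class median was thus 0.62 although its most abundant chains had negative changes.

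COL7A1, which forms the anchoring fibrils beneath the epidermis, fell from 50.4 and 32.7 TPM in Control shRNA to 10.1 and 14.5 TPM in shE2F1 (log2 change -1.79 ± 0.19). In shEZH2 it stood at 49.1 and 57.4 TPM and was not called (log2 change -0.30 in counts, 0.18 with an offset for effective length). COL8A1 fell to 68.4 and 63.3 TPM (log2 change -1.85 ± 0.14) and COL13A1 to 34.9 and 41.1 TPM (log2 change -1.59 ± 0.11). Both were thus called lower in each knockdown. COL18A1, at 37.7 and 44.4 TPM, had a log2 change of -0.65 ± 0.13, below 2-fold.

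The genes called higher in shE2F1 were COL12A1, COL11A2, COL5A2 and COL20A1. COL12A1 rose to 46.7 and 54.6 TPM (log2 change 1.38 ± 0.11), COL11A2 to 1.88 and 1.69 TPM (log2 change 1.53 ± 0.28) and COL5A2 to 1.04 and 0.98 TPM (log2 change 1.2 ± 0.26). COL20A1, a FACIT collagen, had no count in the Control shRNA and shEZH2 libraries and 14 and 11 counts in the shE2F1 libraries, at least 3.73-fold higher than a floor of 3 counts in each control library. COL1A1 stood at 3.49 and 5.06 TPM, with a log2 change of -0.97 ± 0.19 just below 2-fold (-1.08 and called without Control shRNA replicate 2), COL17A1 at 18.4 and 24.6 TPM with a log2 change of -0.22 ± 0.12, and COL27A1 at 3.13 and 3.93 TPM with a log2 change of -0.75 ± 0.18. Of the higher calls, COL5A2 was not called without Control shRNA replicate 1 (0.91) or either shE2F1 library (1.13 and 1.27), COL11A2 without shE2F1 replicate 2 (1.42, adjusted p = 0.0171) and COL20A1 without either Control shRNA library (adjusted p = 0.0231 and 0.0192) or by DESeq2 (adjusted p = 0.0216). Fewer collagen genes were called higher without Control shRNA replicate 1 or either shE2F1 library, and so were fewer of all genes tested.

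Both knockdowns are compared with the same Control shRNA libraries. Of the 26 tested genes, COL5A2, COL11A2 and COL12A1 were called higher in each, COL8A1 and COL13A1 lower in each, and COL4A1 higher in shEZH2 and lower in shE2F1. The direct test of shEZH2 against shE2F1, which uses no control library as a reference, called 8 collagen genes higher and 3 lower, where 10.4% and 12.9% of all genes tested were called, 23.3% together. Whatever their fold, 18 of the 26 had an adjusted p under 0.05, as did 60.3% of all genes. The log2 differences of the 8 were 4.61 ± 0.32 for COL6A3, 2.46 ± 0.18 for COL1A1, 2.29 ± 0.14 for COL4A1, 1.82 ± 0.12 for COL17A1, 1.48 ± 0.19 for COL7A1, 1.36 ± 0.18 for COL27A1, 1.15 ± 0.23 for COL5A2 and 1.06 ± 0.11 for COL4A2. Fibrillar, basement membrane and type VI chains thus all included genes that were higher after the EZH2 than after the E2F1 hairpin. The genes lower in shEZH2 than in shE2F1 were COL8A1 (-1.73 ± 0.14), COL9A2 (-1.51 ± 0.37) and COL20A1, which was at least 3.17-fold higher in shE2F1.

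Within type VI the directions differed in this test, since COL6A1 (-0.53 ± 0.11) and COL6A2 (-1 ± 0.14, adjusted p = 1.33e-04, at the 2-fold limit and called at -1.03 with no filter on low counts) were lower in shEZH2 than in shE2F1 but not called, while COL6A3 was higher. COL4A2 was not called without shEZH2 replicate 2 (0.92) or shE2F1 replicate 1 (0.95), COL5A2 without either shE2F1 library (1.22 and 1.08) and COL9A2 without shEZH2 replicate 2 (-1.25) or either shE2F1 library (-1.55 and -1.47). COL20A1 was not called without either shEZH2 library, with adjusted p = 0.0145 and 0.0249. The correction for GC content and length also ended the calls of COL5A2 (0.86) and COL9A2 (-1.05, adjusted p = 0.0191). With it the differences of COL6A1 and COL6A2 were smaller, at -0.20 (adjusted p = 0.162) and -0.545 (adjusted p = 0.0118).

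**Figure D4:**
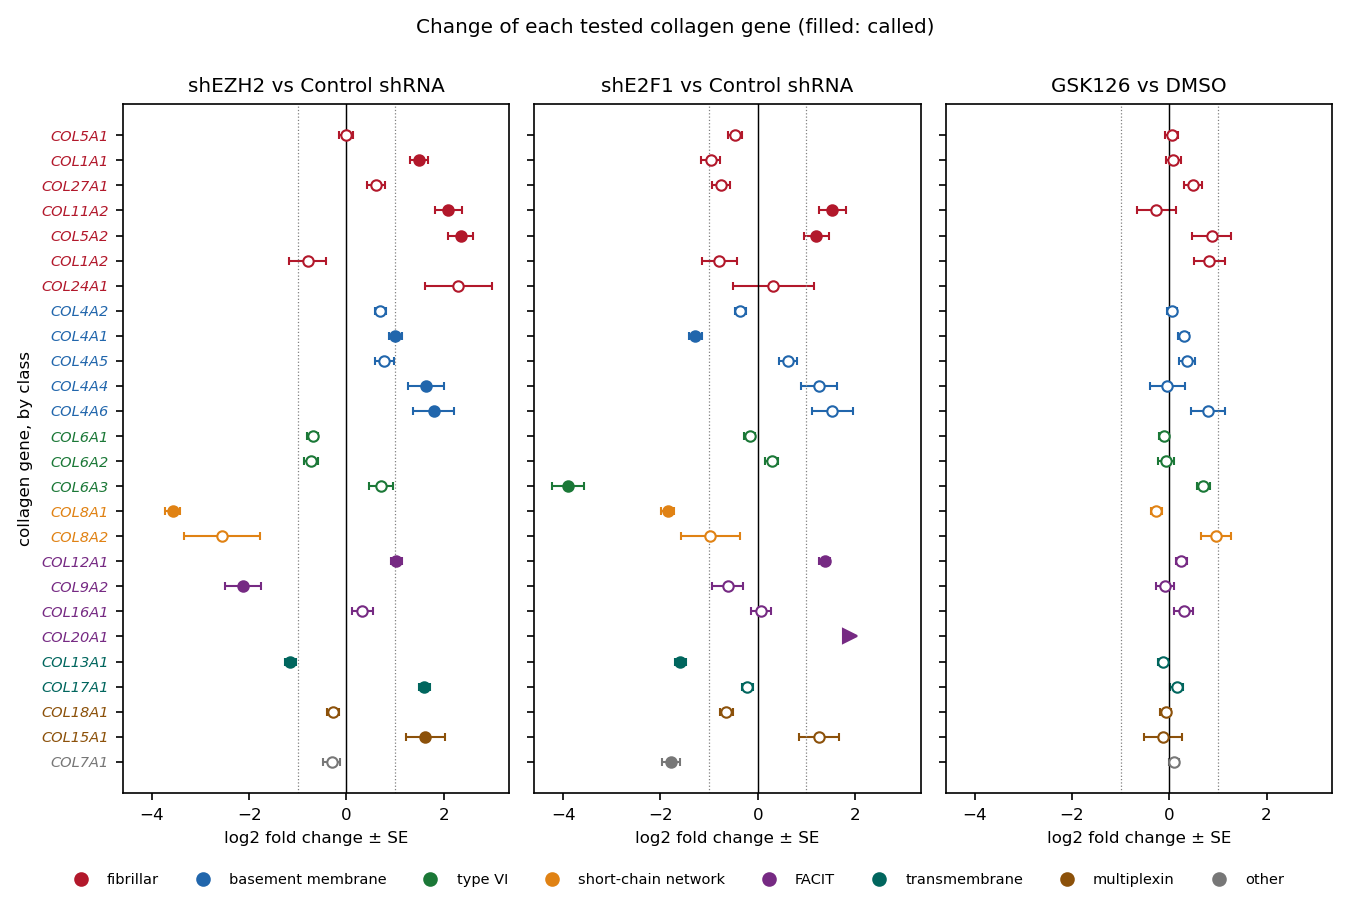
Log2 fold change ± SE from edgeR for each tested collagen gene, by class, in shEZH2, shE2F1 and GSK126 against their own controls. Filled points were called and dotted lines mark 2-fold. COL20A1 is drawn as a triangle at its lower bound in shE2F1 and is not drawn where it had no count in either group, and no point passes the thresholds under GSK126.

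Under GSK126, none of the 24 tested collagen genes was called against DMSO, and none of all 14632 genes tested by edgeR was called (0% called). An unadjusted p under 0.05 was reached by 5 collagen genes and by 577 genes in all, and DESeq2 called 10 genes higher and 1 lower in all, none of them a collagen gene. With the replicate number as a block, edgeR called 0.465% of all genes and none of the collagen genes, and 13.6% of all genes and 7 collagen genes had an adjusted p under 0.05. The median log2 change of the 24 genes was 0.09, against -0.01 over all genes tested, and the range was from -0.26 to 0.96. Basement membrane genes summed to 103 and 101 TPM in DMSO and to 118 and 109 TPM in GSK126, a ratio of 1.11 ± 0.0602. Fibrillar genes had a ratio of 1.12 ± 0.144 and type VI genes a ratio of 1.00 ± 0.0392.

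COL6A3 had the smallest p of the collagen genes under GSK126. It stood at 6.02 and 6.71 TPM in DMSO and at 9.36 and 9.66 TPM in GSK126, without overlap, and its log2 change in edgeR was 0.70 ± 0.14 (adjusted p = 0.749). COL4A1 stood at 18.6 and 18.9 TPM in DMSO and at 23.6 and 23.2 TPM in GSK126, with a log2 change of 0.30 ± 0.11. COL5A2 stood at 0.15 and 0.25 TPM and at 0.41 and 0.40 TPM, with a log2 change of 0.88 ± 0.40. COL8A1, which fell so far in shEZH2, stood at 140 and 162 TPM in DMSO and at 136 and 139.9 TPM in GSK126, with a log2 change of -0.26 ± 0.11. COL17A1 was at 12.4 and 13.0 TPM in DMSO and at 13.8 and 14.9 TPM in GSK126, and COL13A1 at 106 and 94.6 TPM and at 97.9 and 86.5 TPM.

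Whether the EZH2 hairpin and the EZH2 inhibitor changed a gene to different extents was tested directly, as the log2 change in shEZH2 minus that under GSK126, in a fit of all 10 libraries. Of 26 tested collagen genes, 7 were called, 3 with a higher and 4 with a lower change in shEZH2, where 5.13% and 8.67% of all 15773 genes tested were called, 13.8% together. Whatever their fold, 15 of the 26 had an adjusted p under 0.05, as did 36.6% of all genes. COL1A1, COL11A2 and COL17A1 were higher, and COL8A1, COL8A2, COL9A2 and COL13A1 lower. For COL6A3 the difference was 0.02 ± 0.34 (adjusted p = 0.977), with changes of 0.71 in shEZH2 and 0.70 under GSK126 that were each not called. The difference for the COL4A1 and COL4A2 chains was 0.72 ± 0.19 and 0.64 ± 0.17, with adjusted p-values of 0.0107 and 0.0103.

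Collagen chains are modified, folded, exported and trimmed by a fixed set of enzymes and chaperones. Of 31 such genes, 30 matched a symbol in the annotation and 26 were tested in the knockdown fit. In shEZH2, 1 was called higher and 1 lower, where 7.52% and 10.7% of all genes were, and the median log2 change was 0.11, against -0.02 over all genes. In shE2F1, none was called higher and 6 were called lower, where 5.6% and 5.96% of all genes were, and the median was -0.12, against 0.00. The 6 were PCOLCE2, P3H4, PPIB, COLGALT1, CREB3L1 and FKBP14.

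Several of the 6 act at successive steps. PPIB, cyclophilin B of the prolyl 3-hydroxylation complex, stood at 491 and 531 TPM in Control shRNA and at 184 and 187 TPM in shE2F1 (log2 change -1.62 ± 0.11). PCOLCE2, which enhances removal of the C-propeptide, fell from 3.22 and 5.91 TPM to 1.97 and 2.12 TPM in shE2F1 (log2 change -2.41 ± 0.34) and rose to 10.3 and 12.2 TPM in shEZH2 (log2 change 1.08 ± 0.27). In shE2F1 its fall was smaller in TPM, which is scaled by length, than in counts. P3H4, a scaffold of lysine hydroxylation, fell from 6.88 and 4.55 TPM to 1.47 and 2.80 TPM in shE2F1 (log2 change -1.92 ± 0.25) and to 2.07 and 3.18 TPM in shEZH2 (log2 change -1.57 ± 0.25). The central chaperone SERPINH1 (HSP47) stood at 266 and 277 TPM in Control shRNA, 245 and 264 TPM in shEZH2 and 265 and 289 TPM in shE2F1 and was not called. Neither P4HB, at 543 to 586 TPM in the 6 knockdown libraries, nor P4HA1, subunits of prolyl 4-hydroxylase, was called, at log2 changes for P4HA1 of 0.13 and -0.72.

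Of 14 receptor and uptake genes, 10 were tested. In shEZH2, ITGA2, the alpha chain of a collagen-binding integrin, rose from 34.6 and 30.9 TPM to 80.3 and 88.1 TPM (log2 change 1.13 ± 0.11), a change of 0.75 and no call once GC content and length were corrected for. The uptake receptor MRC2 fell from 10.5 and 10.1 TPM to 2.48 and 2.31 TPM (log2 change -2.69 ± 0.16). ADGRG1, an adhesion receptor of type III collagen, was called lower in both knockdowns, at log2 changes of -1.91 ± 0.27 and -2.12 ± 0.27, and it was the only one of the 10 called in shE2F1, where 11.6% of all genes were called. In shEZH2 3 of the 10 were called, against 18.2% of all genes. DDR1, a collagen-activated kinase, was not called, at log2 changes of 0.34 and 0.12. The median log2 changes of the 10 were -0.06 in shEZH2 and -0.16 in shE2F1.

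All 8 crosslinking genes were tested, and LOX, the lysyl oxidase, rose in both knockdowns, from 7.02 and 5.06 TPM to 124 and 144 TPM in shEZH2 (log2 change 4.35 ± 0.16) and to 16.5 and 15.1 TPM in shE2F1 (log2 change 1.06 ± 0.16). In shEZH2 PLOD2 was also called higher and LOXL4 and PLOD1 lower, and in shE2F1 LOXL1, LOXL2 and LOXL3 were called lower. That is 4 of 8 in each knockdown, where 18.2% and 11.6% of all genes were called. The correction for GC content and length ended the calls of PLOD2 (0.86) and PLOD1 (-0.77) in shEZH2 and of LOXL2 (-0.99) in shE2F1. No gene of the processing, receptor or crosslinking lists was called by edgeR under GSK126. Endothelial markers summed to 0.20 to 0.30 TPM in Control shRNA, 0.61 to 1.29 TPM in shEZH2 and 0.71 to 0.85 TPM in shE2F1. Markers of smooth muscle or pericytes summed to 3.69 to 3.92 TPM, 0.77 to 1.13 TPM and 3.65 to 5.33 TPM. VWF was called higher in both knockdowns and RGS5 lower in shEZH2. The part of these markers in the results was not tested.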

How the data were processed

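The labels gave each library its group and number. There were 18 records but 10 distinct libraries, as 8 records held the same values as another, and each library was used once. Libraries were strand-specific and poly(A)-selected. Per the labels (the submitters' processing notes), the authors used STAR 2.7.2b, RSEM 1.3.1 and GRCh38. The deposited files hold, for 62703 Ensembl genes, RSEM expected counts, where reads with several possible sources are shared out by likelihood, and TPM. The effective length in the same files was made by the authors with RSEM and used as an offset in an alternative. Whether counting used the strand was not stated.

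Expected counts were rounded and tested in R 4.3.3 with edgeR 4.0.16: filterByExpr, TMM scaling and the quasi-likelihood F-test, with p-values adjusted by Benjamini-Hochberg across every tested gene. The first fit held the 6 knockdown libraries, another the 4 drug libraries, and the difference between hairpin and inhibitor in all 10. Calls needed an adjusted p under 0.01 and over 2-fold, the thresholds of the study. TPM was summed by class without a test. A floor of 3 counts was used where a group was at 0. Names and coordinates came from GENCODE release 44 (99.9% of identifiers matched). At most 1.2% of the 50-base stretches of a collagen gene occurred in another gene. Promoter sequences came from RefSeq (GRCh38.p14). COL1A1, COL1A2, COL2A1, COL3A1, COL5A2, COL6A1, COL6A5, COL8A1, COL9A3, COL14A1, COL20A1 and COL22A1 had no window in that table.

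The collagen genes set for description were every gene called in a comparison (with or without a replicate block), the 5 of highest mean TPM, and COL1A1, COL4A1, COL4A2, COL6A1, COL6A2, COL6A3, COL17A1 and COL18A1. Their values are not printed for every group. From the processing and receptor lists, SERPINH1, P4HB, P4HA1, ITGA2, DDR1 and up to 3 called genes per direction and knockdown were named. COLGALT1, CREB3L1, FKBP14 and the crosslinking genes were named after their values were seen. The members and the lists were chosen with earlier results of these data known. Alternatives were DESeq2 1.42.0, its size factors in edgeR, other filters on counts, the libraries fitted, a replicate block, correction for GC content and length (splines with 5 degrees of freedom), effective length, a call at adjusted p under 0.05, and leaving out each library. The pipeline was checked on simulated data. With 2 libraries per group and totals of 13198932 to 20055550 counts, precision is limited for genes with few counts.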

Additional observations from a re-analysis of the deposited data

Results flagged for a closer look

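For 7 collagen genes the change after the EZH2 hairpin differed from the change under GSK126, by the direct test of that difference in edgeR over all 10 libraries. Knockdown and drug experiments had separate controls. The value in each case is the log2 change in shEZH2 minus the log2 change under GSK126, with its SE.

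COL8A1 differed by -3.30 ± 0.20 (adjusted p = 3.36e-06), with -3.57 in shEZH2 and -0.26 under GSK126. COL8A2 differed by -3.51 ± 0.86 (adjusted p = 0.00761), from 2 to 36 counts a library, and was not called when any of 9 libraries was left out (-4.26 to -2.39), the exception being Control shRNA replicate 2. COL9A2 differed by -2.03 ± 0.44 (adjusted p = 0.00362), with -2.13 and -0.09, and was not called without Control shRNA replicate 1 (-1.42), shEZH2 replicate 2 (-1.78) or DMSO replicate 1 (-1.88). COL13A1 differed by -1.01 ± 0.16, with -1.15 and -0.13, and fell below 2-fold without Control shRNA replicate 1 (-0.87), DMSO replicate 1 (-0.995) or GSK126 replicate 2 (-0.98).

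COL11A2 differed by 2.37 ± 0.47 (adjusted p = 0.00212), with 2.10 and -0.26, and had adjusted p-values of 0.0103, 0.0108 and 0.0107 without Control shRNA replicate 1 (2.31), shEZH2 replicate 2 (2.27) or DMSO replicate 2 (1.94). COL17A1 differed by 1.46 ± 0.19 (adjusted p = 1.60e-04), with 1.60 and 0.16. COL1A1 differed by 1.42 ± 0.26 (adjusted p = 0.00152), with 1.49 and 0.09. With the correction for GC content and length, COL13A1 (-0.96) and COL8A2 (-3.16, adjusted p = 0.0102) were not called, while COL1A2 was (-1.91, adjusted p = 0.00641). The differences of COL8A1, COL17A1 and COL1A1 were called whichever library was left out.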

How the results depend on the processing

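DESeq2, its size factors in edgeR, other filters and other sets of libraries kept every count of collagen genes called within 1.5 times. With an offset for effective length, 5 collagen genes rather than 9 were called higher in shEZH2, and 2 rather than 4 lower in the difference between hairpin and inhibitor. Over all genes that offset called 991 rather than 1156 of 15373 higher in shEZH2. In the difference it called 1081 rather than 1367 of 15773 lower. At adjusted p under 0.05 with no fold, the counts were 14 higher and 6 lower in shEZH2, 8 and 10 in shE2F1, 6 lower in shEZH2 against shE2F1, and 9 higher in the difference from GSK126. Leaving out a library lowered the number of collagen genes called higher in shEZH2 (fewest without shEZH2 replicate 2) and could lower it in shE2F1. It could also lower the number called lower in shEZH2 against shE2F1 (fewest without shE2F1 replicate 2). The same held for those lower in the difference from GSK126 (fewest without Control shRNA replicate 1 or DMSO replicate 1). Over all genes tested, fewer were also called in these directions when the libraries named here were left out. At adjusted p under 0.05 with no fold, 19 of the 26 processing genes were called in shEZH2, 16 in shE2F1 and 14 in shEZH2 against shE2F1, where 55.6%, 44.7% and 60.3% of all genes were. The receptor genes then numbered 6 in shE2F1 and 6 in shEZH2 against shE2F1, and the crosslinking genes 7 in each of the 3 comparisons. At adjusted p under 0.01 and over 2-fold, correction for GC content and length gave 3 receptor genes in shEZH2 against shE2F1, not 1. At these thresholds it gave 2 crosslinking genes in shEZH2, not 4.

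Summed levels without the most abundant gene gave ratios to control of 1.32 for all collagens in shEZH2 and 0.809 in shE2F1. For fibrillar genes they were 3.24 in shEZH2 and 1.34 in GSK126, for basement membrane genes 2.35 and 1.33, and for type VI genes 0.989 and 1.08. TMM-scaled CPM gave 1.74 and 0.736 for basement membrane genes in shEZH2 and shE2F1.

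Changes near 0 changed sign. COL5A1 in shEZH2 was 0.008 with DESeq2 and with its size factors, 0.12 with the correction for GC content and length, 0.119 with that and the block, 0.002 in all 10 libraries, and -0.223 to 0.241 leaving out a library. COL7A1 in shEZH2 was 0.184 with effective length and -0.588 to 0.058 leaving out a library, and COL18A1 was 0.059 with GC correction and 0.048 with the block as well. COL8A2 in shE2F1 ranged from -1.567 to 0.149 leaving out a library. Under GSK126, COL1A1 ranged from -0.045 to 0.233, COL9A2 from -0.274 to 0.077 and COL11A2 from -0.598 to 0.155, and was 0.112 with effective length. For COL6A3 the difference from GSK126 was -0.001 without a filter, -0.03 with the block, -0.145 with GC correction, -0.19 with both, and -0.51 to 0.388 leaving out a library. The causes were not tested.

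Replicate numbers are shared between groups, but the labels give no shared batch and only 2 pairs exist. The deviations of same-numbered libraries correlated at 0.335 between DMSO and GSK126 and at 0.02 to 0.097 between knockdown groups, over 15773 genes. With the replicate as a block, 9 collagen genes were called higher and 4 lower in shEZH2, where 1152 and 1636 of all 15373 genes tested were. COL8A2 was added, at -2.43 with an adjusted p of 0.00645. No collagen gene was called under GSK126, where 68 genes (0.465%) were called in all. COL6A3 (0.70, adjusted p = 1.38e-07) and COL8A1 (-0.26, adjusted p = 3.71e-08) then passed the adjusted p but not 2-fold. So did COL4A1 (0.30, adjusted p = 3.70e-05) and COL27A1 (0.49, adjusted p = 1.37e-04). COL12A1 (0.25, adjusted p = 3.72e-04) and COL4A5 (0.37, adjusted p = 0.00145) did as well. The block changed no count of collagen calls by over 1.5 times.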
